A study of Mus musculus with 4 samples.

Results

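Binding of Insm1, Neurod1 and Foxa2 was examined around 5 genes of the endocrine lineage of the pancreas, Neurog3, Pax4, Rfx6, Myt1 and St18. A site was taken as a member when its summit lay in a fixed window of the mm9 genome around one of these genes. The windows were chromosome 10 from 61495000 to 61695000 for Neurog3, chromosome 6 from 28290000 to 28500000 for Pax4 and chromosome 10 from 51300000 to 51560000 for Rfx6. Those of Myt1 and St18 were chromosome 2 from 181400000 to 181660000 and chromosome 1 from 6380000 to 6950000. Together they covered 1500 kb and held 101 of the 60439 deposited sites, namely 27 of 17453 Insm1 sites, 30 of 14607 Neurod1 sites and 44 of 28379 Foxa2 sites. Overlapping sites were merged into regions, of which 60 of 39412 were members.

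The data came from chromatin immunoprecipitation with sequencing (ChIP-seq), in which DNA bound by a protein is pulled down with an antibody and read. There were 4 samples, with antibodies to Insm1, Neurod1 or Foxa2 and with control IgG. All were of one beta cell line, established from islets of RIP1-Tag2 mice aged 6 weeks, on a mixed background of the C57BL/6, 129/ola and CBA/J strains. Beta cells of these mice carry a viral oncogene under control of an insulin promoter, so the line is a tumour-derived model of mature beta cells and not of the progenitors in which some of these genes act. Passages 10 to 15 were used, in medium with 25 mmol/l glucose and 70 µM 2-mercaptoethanol. Each factor has 1 site list and IgG sites were not analysed here, so there is no spread between replicates and no control background, and no test was made. Intervals given for shares are 95% Wilson intervals that cover counting error only, and neighbouring sites are not independent.

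In the developing pancreas, Neurog3 is the basic helix-loop-helix factor that commits progenitors to the endocrine fate, and it is normally switched off as islet cells mature. Its programme includes Neurod1, a related factor that binds E-boxes, and Insm1, a zinc finger protein, while Foxa2 is a forkhead factor present from early endoderm onwards. Pax4 is a paired-homeodomain repressor needed for beta and delta cells. Rfx6 is a winged-helix factor needed to form islet cells and to keep beta cells functional. Myt1 and St18, also called Myt3, are zinc finger proteins of one family that act in endocrine and neural cells. By its title the study asks how Insm1 works together with the other factors, so the question here is where the 3 factors bound at these genes and where they met.

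Promoter sequence from RefSeq (build GRCm38.p6) was on hand for 3 of the 5 genes, in 1 entry each for Neurog3 and Rfx6 and 3 entries for Myt1. The 250 bases before each start were searched on both strands for the E-boxes CAGATG and CAGCTG and the forkhead motifs TGTTTAC and TGTTTGC. The E-box CAGCTG reads the same on both strands. The 2 entries with a match are shown, with the matched letters in capitals, because they are the promoter sequences of members that hold letters these factors are known to read. Both are on the plus strand, at chr10:62132840-62133089 for Neurog3 and chr2:181766779-181767028 for the Myt1 entry.
Neurog3: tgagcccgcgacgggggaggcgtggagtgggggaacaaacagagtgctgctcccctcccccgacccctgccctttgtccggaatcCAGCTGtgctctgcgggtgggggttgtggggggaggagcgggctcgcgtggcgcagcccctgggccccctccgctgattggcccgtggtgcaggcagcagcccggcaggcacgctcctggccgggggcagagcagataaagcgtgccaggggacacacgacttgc
Myt1: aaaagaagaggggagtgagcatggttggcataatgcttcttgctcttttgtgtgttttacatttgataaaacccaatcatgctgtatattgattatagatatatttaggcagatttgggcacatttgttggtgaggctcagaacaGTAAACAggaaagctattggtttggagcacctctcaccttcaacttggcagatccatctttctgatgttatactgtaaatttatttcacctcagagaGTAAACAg

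The Neurog3 promoter held CAGCTG once, from 165 to 160 bases before the start. The Myt1 entry held TGTTTAC at 2 places, from 105 to 99 and from 8 to 2 bases before its start, both read on the minus strand and therefore shown as GTAAACA. No matches shared a base. Over all 32851 promoter entries, CAGATG was present in 14.4%, CAGCTG in 13.0%, TGTTTAC in 3.17% and TGTTTGC in 4.3%. The share of entries with any of the 4 motifs, or with 2 copies of one, was not computed, so these matches cannot be called unusual. A match is a description of the letters. The sites are on mm9, a different build, so no site was placed against these promoters or against any exon or intron.

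In the order of the RefSeq gene table (GRCm38.p6), the nearest protein-coding neighbours are Fam241b and Tspan15 for Neurog3, Fscn3 and Snd1 for Pax4, and Gprc6a and Vgll2 for Rfx6. Those of Myt1 are Oprl1 and Pcmtd2, and those of St18 are Alkal1 and Pcmtd1. A window can hold parts of such neighbours, and a site in a window is not thereby assigned to the gene the window is named for.

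The 5 windows were bound more densely than the genome as a whole, by all 3 factors. They held 40.0 regions per Mb, compared with 15.3 per Mb between the first and last sites of all chromosomes, a ratio of 2.61. Insm1 sites reached 18.0 per Mb against 6.79, Neurod1 sites 20.0 against 5.68 and Foxa2 sites 29.3 against 11.0. Neurod1 had the largest ratio of the 3, at 3.52, compared with 2.65 for Insm1 and 2.66 for Foxa2. Few sites underlie these ratios and no interval was computed, so their order cannot be set apart from counting error. Whether windows around other genes are as dense was not tested.

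**Figure D1:**
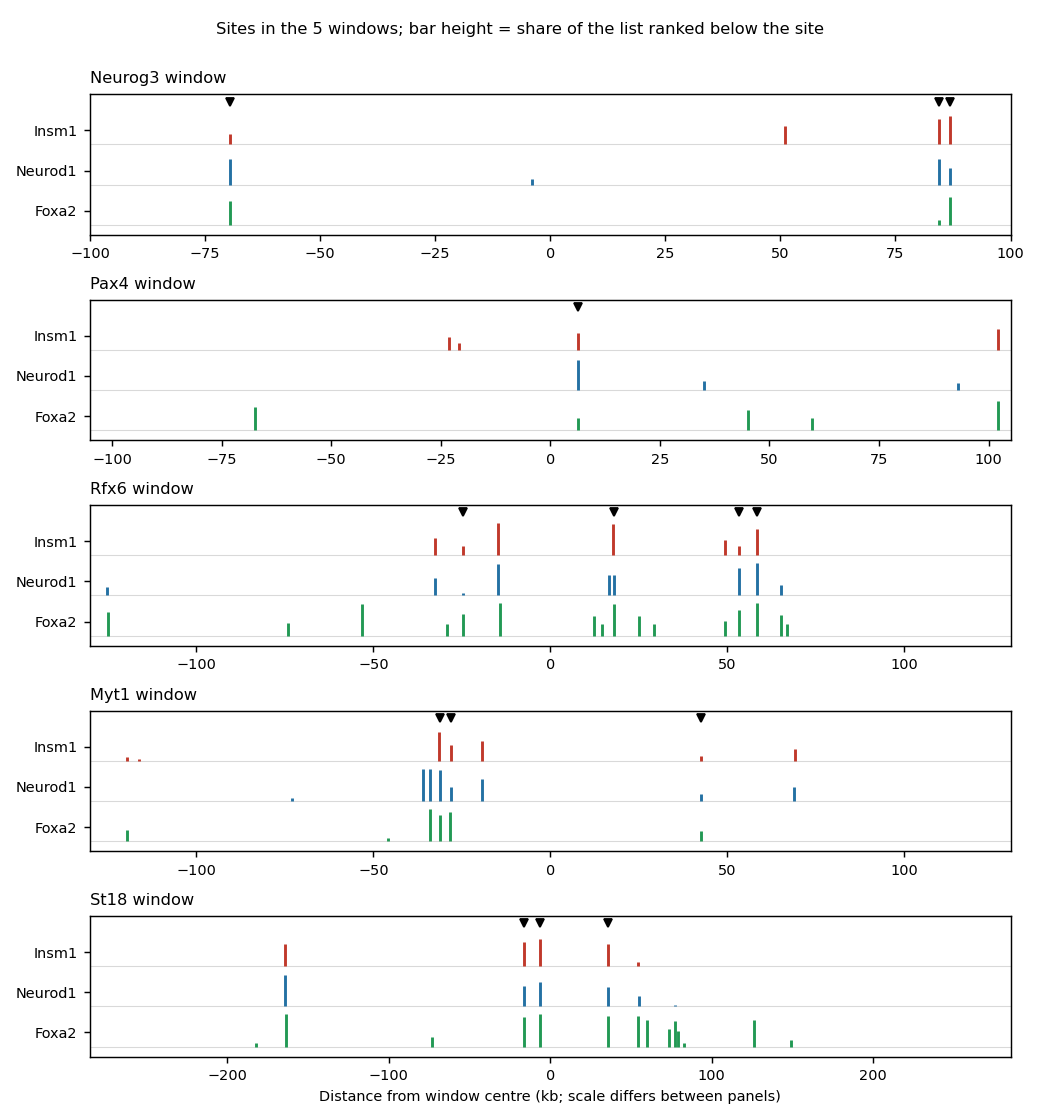
Sites of Insm1 (red), Neurod1 (blue) and Foxa2 (green) along each window, as distance of the summit from the window centre in kb. The height of a bar is the share of the factor's own list that ranks below the site, and black triangles mark the 14 regions with all 3 factors. Sites crowd near the middle of the Rfx6 window and in one stretch of the Myt1 window, whereas the Neurog3 window is nearly empty between its ends.

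Density differed greatly between the loci. The Rfx6 window, of 260 kb, held 19 regions with 7 Insm1, 9 Neurod1 and 16 Foxa2 sites. The Myt1 window, of the same length, held 11 regions with 7, 8 and 6 sites. When all chromosomes were divided into consecutive tiles of 260 kb, 0.314% of 9881 tiles held as many regions as the Rfx6 window and 6.87% as many as the Myt1 window. For single factors, 0.162% of tiles held as many Foxa2 sites as the Rfx6 window, 0.83% as many Neurod1 sites and 3.91% as many Insm1 sites. For the Myt1 window these shares were 16.1%, 1.56% and 3.91%. Counts like those of Rfx6 were thus rarest for Foxa2 and Neurod1, and those of Myt1 for Neurod1.

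The Pax4 window, of 210 kb, held 9 regions with 4 Insm1, 3 Neurod1 and 5 Foxa2 sites, and 7.45% of tiles of that length held as many regions. As many sites were found in 13.1% of tiles for Insm1, 17.4% for Neurod1 and 16.5% for Foxa2. The Neurog3 window, of 200 kb, held 5 regions with 4, 4 and 3 sites, reached by 26.4% of tiles for regions and by 12%, 9.1% and 34.7% for the 3 factors. The St18 window, the longest at 570 kb, held 16 regions with 5, 6 and 14 sites, reached by 16.9% of tiles for regions and by 35.9%, 21.7% and 9.24% for the 3 factors. By number of regions, Neurog3 and St18 were therefore the least unusual of the 5 windows, although each held more than the median tile of its length, which had 2 and 7 regions.

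All 3 factors met in 14 of the 60 regions (23.3%, interval 14.4 to 35.4%), compared with 16.9% of all regions. The interval includes the share over all regions. Rfx6 had 4 such regions, Neurog3, Myt1 and St18 had 3 each and Pax4 had 1. At Neurog3 they made up 3 of only 5 regions. At least 3 regions with all 3 factors were found in 4.55% of tiles of the length of the Neurog3 window, 7.21% of those of the Myt1 length and 21.8% of those of the St18 length. At least 4 were found in 3.12% of tiles of the Rfx6 length, and at least 1, as at Pax4, in 33.6%.

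A further 5 regions held Insm1 with Neurod1 (8.33%, 3.6 to 18.1%), against 7.5% of all regions. Another 4 held Insm1 with Foxa2 (6.67%, 2.6 to 15.9%), against 8.03%, and 4 held Neurod1 with Foxa2 (6.67%, 2.6 to 15.9%), against 4%. In total 27 of 60 regions (45.0%, 33.1 to 57.5%) held at least 2 factors, against 36.4% of all regions, which the interval includes. Foxa2 was alone in 22 regions (36.7%, 25.6 to 49.3%), against 43.1% of all regions. Neurod1 was alone in 7 (11.7%, 5.8 to 22.2%), against 8.65%, and Insm1 in 4 (6.67%, 2.6 to 15.9%), against 11.8%. The intervals of all these classes include the share over all regions. Of the 22 regions with Foxa2 alone, 9 lay at Rfx6 and 9 at St18, and none at Neurog3.

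**Figure D2:**
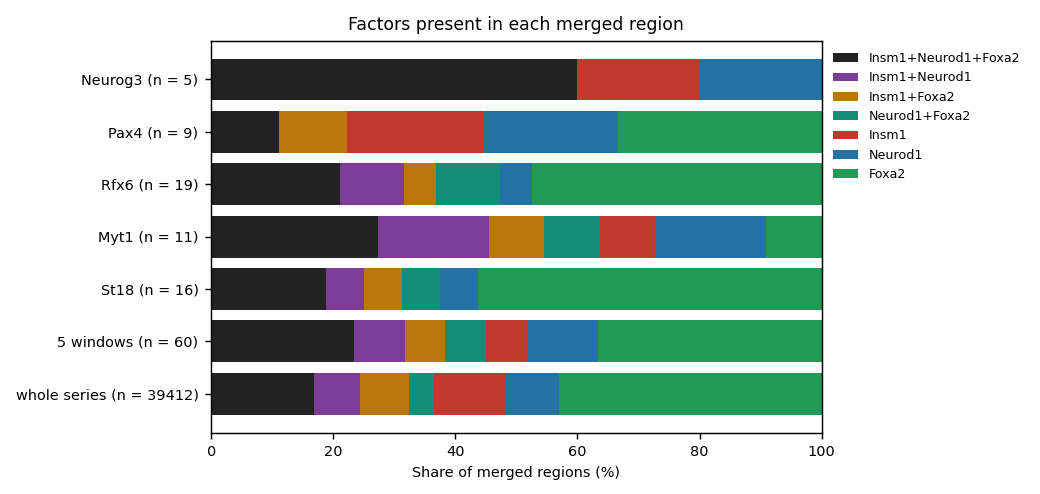
Share of merged regions, in percent, by the factors present in them, for each window, for the 5 windows together and for all 39412 regions; n is the number of regions. Regions with all 3 factors (black) are 3 of 5 at Neurog3 and 1 of 9 at Pax4, and regions with Foxa2 alone (green) are 9 of 19 at Rfx6 and 9 of 16 at St18.

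Seen from the Insm1 list, 19 of the 27 Insm1 sites (70.4%, 51.5 to 84.1%) overlapped a Neurod1 site, against 55% of the whole list. Foxa2 was present at 18 (66.7%, 47.8 to 81.4%), against 56.2%, and both partners at 14 (51.9%, 34.0 to 69.3%), against 37.9%. Only 4 Insm1 sites had neither partner (14.8%, 5.9 to 32.5%), against 26.7%. Each interval includes the value of the whole list, so these shares were not distinguishable from it at this number of sites.

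Neurod1 sites held Insm1 in 19 of 30 cases (63.3%, 45.5 to 78.1%), against 65.7% of the list, and Foxa2 in 18 (60%, 42.3 to 75.4%), against 55.9%. Both were present at 14 (46.7%, 30.2 to 63.9%), against 44.9%. Foxa2 sites held Insm1 in 18 of 44 cases (40.9%, 27.7 to 55.6%), against 34.6%, and Neurod1 in 18 (40.9%, 27.7 to 55.6%), against 28.8%. Neither was present at 22 (50%, 35.8 to 64.2%), against 59.8%. These intervals too include the values of the whole lists.

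The authors' score of a site was used only to rank it within its own list, with rank 1 the highest score. In the highest-scoring 10% of their lists were 7 of 30 Neurod1 sites (23.3%, 11.8 to 40.9%; whole list 10%) and 10 of 44 Foxa2 sites (22.7%, 12.8 to 37.0%; whole list 10%). Of the Insm1 sites, 2 of 27 were (7.41%, 2.1 to 23.4%; whole list 10%), both at Rfx6. The median Insm1 score was 133, beside 130 in the whole list. The median Neurod1 score was 81, beside 72, and the median Foxa2 score was 54.5, beside 42.

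**Figure D3:**
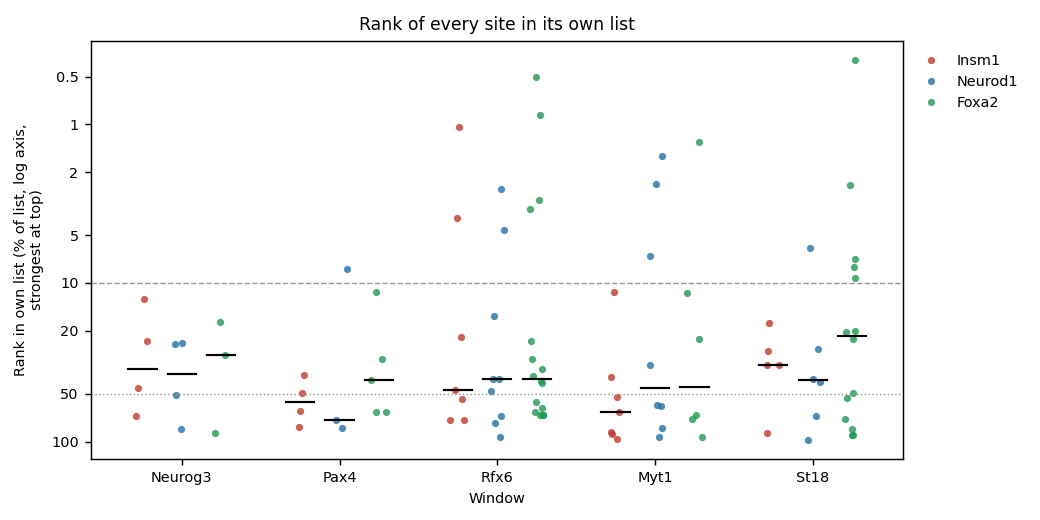
Rank of each of the 101 sites in its own list, as percent of the list on a log axis with the strongest sites at the top. Points are sites, black bars are medians by window and factor, and the dashed and dotted lines mark 10% and 50% of a list. Rfx6, Myt1 and St18 hold the sites of the highest ranks. All 11 Neurog3 sites lie below the dashed line, 7 of them above the dotted line.

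At Neurog3, none of the 11 sites was in the highest 10% of its list. With 11 sites, few or none are to be expected there at a whole-list share of 10%. The median rank was at 34.6% of the list for Insm1, 37.6% for Neurod1 and 28.4% for Foxa2, each above the middle of its list. The strongest site was an Insm1 site at 61681636 to 61681850 with a score of 241 (rank 2207). It overlapped a Foxa2 site with a score of 97 (rank 5015), the strongest of Foxa2 in the window, and a Neurod1 site with a score of 71 (rank 7455). This region, with all 3 factors, lay 2019 bp from another one.

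That neighbour, at 61679405 to 61679617, held the strongest Neurod1 site of the window, with a score of 111 (rank 3472). Its Insm1 site scored 188 (rank 4044) and its Foxa2 site 23 (rank 25133), so Foxa2 was near the bottom of its list there. The third region with all 3 factors lay at the other end of the window, at 61525202 to 61525426, with scores of 107 for Insm1 (rank 12007), 110 for Neurod1 (rank 3539) and 68 for Foxa2 (rank 8070). In the 154 kb between them were 2 single sites, a 66 bp Neurod1 site at 61591086 to 61591152 (score 51, rank 12275) and an Insm1 site at 61645910 to 61646065 (score 135, rank 8041).

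Beyond the upper end of the window, the nearest site was an Insm1 site at 61702113 to 61702266 (score 201, rank 3502), 7.1 kb past the end. It ranked below the strongest Insm1 site in the window. At 111.8 kb past the end, at 61806751 to 61806943, was the Insm1 site of rank 4 in the whole list (score 2050), with a Neurod1 site of rank 272 and a Foxa2 site of rank 945. Tspan15, Tacr2 and Hk1 follow Neurog3 on that side in the gene table. With the window shortened by 50 kb at both ends, only the 66 bp Neurod1 site remained, and with it lengthened by 100 kb there were 8 regions.

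At Pax4, the 3 factors met in 1 region, at 28401104 to 28401355. The Neurod1 site in it had a score of 190 (rank 1192) and was the only site of the window in the highest 10% of its list. Its Insm1 site, with a score of 130 (rank 8607), stood exactly at the median of the list, and its Foxa2 site scored 32 (rank 18606). The region thus ranked high for Neurod1, middling for Insm1 and low for Foxa2.

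The strongest Insm1 and Foxa2 sites of the Pax4 window overlapped each other near its upper end, at 28497012 to 28497210, with scores of 149 for Insm1 (rank 6648) and 130 for Foxa2 (rank 3226). No Neurod1 site overlapped them. The remaining 7 regions held 1 factor each. Among them were Insm1 sites at 28371835 to 28371947 (score 112) and 28374029 to 28374249 (score 95), and Neurod1 sites with scores of 56 and 52. The 3 sites of Foxa2 alone scored 65, 50 and 32. The Pax4 window thus had the lowest share of regions with more than 1 factor of the 5, at 2 of 9 (22.2%), against 36.4% of all regions. With only 9 regions and no interval computed, this share cannot be set apart from that of all regions. The counts of the Pax4 window depended on where it ended, since shortening by 50 kb left 5 regions and lengthening by 100 kb gave 18.

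Rfx6 had the highest site density of the 5 loci for Neurod1 and Foxa2, at 34.6 and 61.5 sites per Mb, and the same Insm1 density as Myt1, 26.9 per Mb. Its regions lay mostly in the middle of the window, and 16 of 19 fell between 51397369 and 51497030. The strongest Insm1 site of all 5 windows was here, at 51415187 to 51415332, with a score of 546 (rank 182). It overlapped a Neurod1 site at 51415201 to 51415413 with a score of 240 (rank 674).

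The strongest Foxa2 site of the Rfx6 window lay beside this pair and did not overlap it. It was found at 51415729 to 51415931, with a score of 534 (rank 143), 316 bp from the end of the Neurod1 site and 397 bp from that of the Insm1 site. By overlap the 3 sites therefore count as 2 regions, and they merge into 1 with all 3 factors when sites are widened by 500 bp. All 3 ranked in the highest 5% of their lists.

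All 3 factors met in 4 regions of the Rfx6 window. The one at 51488263 to 51488456 had the strongest Neurod1 site of the window, with a score of 300 (rank 373), a Foxa2 site of 436 (rank 247) and an Insm1 site of 193 (rank 3811). The one at 51447777 to 51448044 had scores of 370 for Insm1 (rank 685), 82 for Neurod1 (rank 5874) and 251 for Foxa2 (rank 973). In the first of these Neurod1 and Foxa2 ranked above Insm1, and in the second Insm1 and Foxa2 ranked above Neurod1, by rank number and by percent of the list.

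The others were weaker for Insm1. The region at 51483145 to 51483356 had scores of 102 for Insm1 (rank 12827), 136 for Neurod1 (rank 2365) and 79 for Foxa2 (rank 6613). The region at 51405205 to 51405476 had 102 for Insm1 (rank 12827), 47 for Neurod1 (rank 13752) and 57 for Foxa2 (rank 9929), and its Neurod1 site was close to the bottom of its list. None of the 7 Insm1 sites at Rfx6 stood alone (interval 0 to 35.4%), against 26.7% of the whole Insm1 list. Of the 16 Foxa2 sites, 9 did (56.2%, 33.2 to 76.9%), against 59.8% of the whole Foxa2 list. Both intervals include the value of the whole list. Of those 9, 7 scored between 31 and 49. The other two were the site of 534 described above and one at 51376607 to 51376784 with a score of 266 (rank 850). One Foxa2 site, of 56 bp and a score of 31, was the only member of at most 60 bp.

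At Myt1, Neurod1 had its strongest sites of the 5 windows. In one stretch of 8.0 kb lay 4 regions that held 4 of the 8 Neurod1 sites, 3 of the 6 Foxa2 sites and 2 of the 7 Insm1 sites. The first region, at 181493878 to 181494078, held Neurod1 alone with a score of 307 (rank 349). The second, at 181495973 to 181496175, held the highest-ranked Neurod1 site of all windows, with a score of 349 (rank 232), and a Foxa2 site of 379 (rank 367), the strongest of the window. Insm1 had no site in either of these regions, and its nearest site was 2384 bp from the second.

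The other 2 regions of the stretch held all 3 factors. At 181498559 to 181498847 were the strongest Insm1 site of the window, with a score of 250 (rank 1994), a Neurod1 site of 208 (rank 984) and a Foxa2 site of 81 (rank 6421). At 181501673 to 181501901 the scores were 126 for Insm1 (rank 9098), 64 for Neurod1 (rank 8775) and 129 for Foxa2 (rank 3256). The Neurod1 sites of the first 3 regions were all in the highest 10% of their list, and that of the fourth was below its median.

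Outside this stretch no Myt1 site was in the highest 10% of its list. The third region with all 3 factors, at 181572429 to 181572677, had scores of 89 for Insm1 (rank 15246), 52 for Neurod1 (rank 11920) and 29 for Foxa2 (rank 20571), all below the median of their lists. Another 2 regions held Insm1 with Neurod1 and without Foxa2, with Insm1 scores of 147 and 111. The median Insm1 score of the window, 111, was the lowest of the 5 windows.

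St18, the relative of Myt1, had the strongest Foxa2 site of all windows. It had the fewest sites per Mb for Insm1, at 8.77, and also for Neurod1, at 10.5. Its window was the longest, at 570 kb, and its regions spanned only 331.3 kb, which lowers such densities. By count, its 5 Insm1 sites were more than the 4 at Neurog3 and at Pax4. The Foxa2 site at 6501037 to 6501238 had a score of 580 (rank 111). As at Rfx6, it lay beside a region with Insm1 and Neurod1 and did not overlap it, with a gap of 254 bp. In that region, at 6500617 to 6500783, the Neurod1 site scored 217 (rank 881), the highest of the window, and the Insm1 site 160 (rank 5742).

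The 3 regions of St18 with all 3 factors lay within 53 kb of each other. At 6658611 to 6658892 were the strongest Insm1 site of the window, with a score of 210 (rank 3139), a Neurod1 site of 105 (rank 3816) and a Foxa2 site of 293 (rank 681). At 6648274 to 6648591 the scores were 176 for Insm1 (rank 4660), 82 for Neurod1 (rank 5874) and 146 for Foxa2 (rank 2631). At 6700856 to 6701121 they were 160 (rank 5742), 80 (rank 6125) and 159 (rank 2261). Foxa2 had the highest rank in all 3, by rank number and by percent of its list. By percent of the list, Foxa2 ranked highest in 8 of the 14 regions with all 3 factors in the windows. Its list is the longest, with 28379 sites, so a given rank number is a smaller percent of it. By rank number Foxa2 was highest in fewer regions. Insm1 ranked above it at 51447777 to 51448044 (685 against 973), and Neurod1 at 181572429 to 181572677 (11920 against 20571). Over all overlapping pairs of the whole lists, Insm1 ranked above Foxa2 in 36.4% and Neurod1 above Foxa2 in 36.2%, by the same measure. A highest rank for Foxa2 was therefore not particular to St18.

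Foxa2 also held 9 St18 regions alone, with scores of 22 to 580. These were 64.3% of its 14 sites there (38.8 to 83.7%), against 59.8% of its whole list, which the interval includes. Of the 14 sites, 5 were in the highest 10% of the Foxa2 list. None of the 5 Insm1 sites at St18 stood alone (interval 0 to 43.4%), against 26.7% of the whole Insm1 list, which the interval includes. The one at 6719323 to 6719733, which at 410 bp was the widest site of all windows, scored 88 (rank 15433) and overlapped a Foxa2 site of 171 (rank 2001), and a Neurod1 site of 58 (rank 10120) began 179 bp further on. The St18 window was empty from its start to 6482542 and from 6813890 to its end.

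Summits in the 14 regions with all 3 factors lay within 21 to 130 bp of each other, with a median spread of 80.5 bp. The tightest was the St18 region at 6700856 to 6701121 and the widest the Myt1 region at 181498559 to 181498847. The Neurod1 summit was the middle one in 7 regions, the Insm1 summit in 5 and the Foxa2 summit in 2. Spread and middle summit were not computed for the regions with all 3 factors elsewhere in the genome. Neither can therefore be called particular to these loci. Over all overlapping pairs in the windows, the median distance was 33 bp for Insm1 and Neurod1 (19 pairs), 51.5 bp for Insm1 and Foxa2 (18 pairs) and 47.5 bp for Neurod1 and Foxa2 (18 pairs). The values over the whole lists were 31, 40 and 41 bp. The order of the factors along the chromosome was not fixed, as both partners lay on either side of the Insm1 summit.

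**Figure D4:**
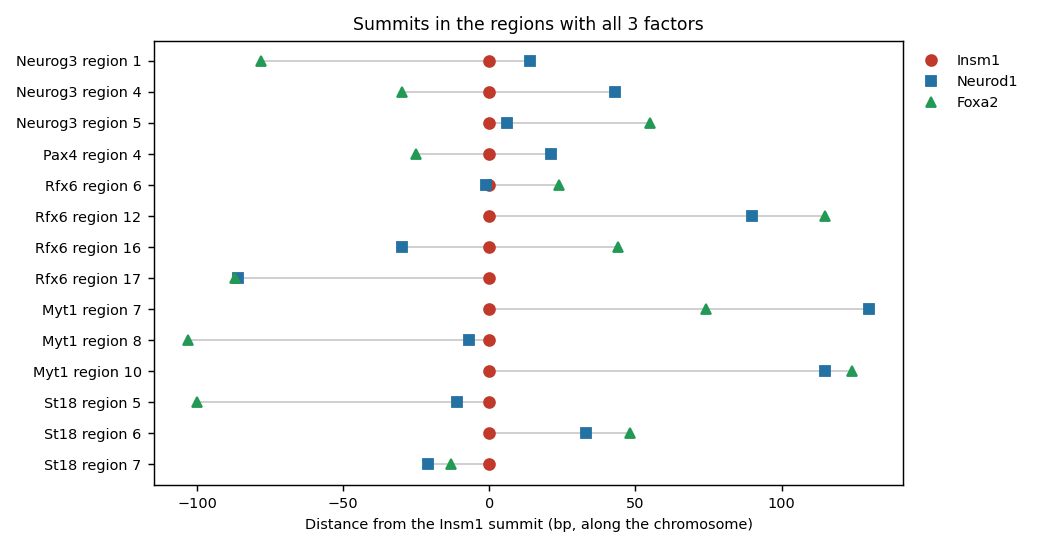
Summits of Neurod1 (squares) and Foxa2 (triangles) in the 14 regions with all 3 factors, as distance from the Insm1 summit (circles at 0) in bp along the chromosome. Regions are numbered along each window. The spread runs from 21 bp at St18 region 7 to 130 bp at Myt1 region 7, and partners lie on both sides of Insm1.

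Across the overlapping pairs of sites, Spearman's rho of the ranks, each taken within its own list, was 0.47 for Insm1 and Neurod1 (19 pairs), 0.47 for Insm1 and Foxa2 (18 pairs) and 0.34 for Neurod1 and Foxa2 (18 pairs), as a description of sites that share loci. Over all overlapping pairs of the whole lists, rho was 0.47, 0.34 and 0.29 in the same order, so such a relation was not particular to these loci.

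Among the 10 Foxa2 sites of the windows in the highest 10% of their list, 6 overlapped an Insm1 site and 4 did not. Of these 4, 2 had an Insm1 site within 1000 bp. These were the Foxa2 sites of ranks 111 and 143, at St18 and Rfx6, and Insm1 lay 254 and 397 bp away. Over the whole list, 80.2% of the Foxa2 sites in the highest 10% overlapped an Insm1 site, and 17.6% of the remainder had one within 1000 bp. With only 10 and 4 sites and no interval computed, the shares in the windows cannot be set apart from these.

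The regions of the windows lay close together. This measure and the gap used for it were chosen after the values were seen. At a fixed gap, more regions fall in runs where regions are denser, and the windows had 40.0 regions per Mb against 15.3. The shares in runs are therefore not a result separate from density. Runs also include the neighbouring regions at Rfx6 and St18 described above, with gaps of 316 and 254 bp. Of the 60 regions, 35 (58.3%) belonged to runs of 2 or more regions with gaps of at most 5000 bp, compared with 31.9% of all regions, and 12 (20.0%) to runs of 4 or more, compared with 2.67%. There were 3 runs of 4. The Myt1 run, from 181493878 to 181501901, held 2 Insm1, 4 Neurod1 and 3 Foxa2 sites. The Rfx6 run, from 51442339 to 51448044, held 1, 2 and 3 sites. The St18 run, from 6737941 to 6748036, held 1 Neurod1 and 4 Foxa2 sites and no Insm1 site. At Rfx6, with 73.1 regions per Mb, 16 of 19 regions were in runs, compared with 2 of 9 at Pax4, with 42.9 per Mb. Myt1, with 42.3 per Mb, had 6 of 11 in runs, St18, with 28.1, had 9 of 16, and Neurog3, with 25.0, had 2 of 5. Between the 5 windows, the share in runs thus did not follow the order of density.

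Of the 20 sites just inside and just outside the window ends, 8 scored above the median of their list. Inside the lower ends were Foxa2 sites with scores of 68 (Neurog3), 65 (Pax4), 31 (Myt1) and 22 (St18), and a Neurod1 site of 54 (Rfx6). Outside the lower ends, the nearest sites were a Neurod1 site of 57 at Neurog3, Insm1 sites of 100 at Pax4 and 90 at Myt1, and Foxa2 sites of 28 at Rfx6 and 22 at St18. Inside the upper ends were Foxa2 sites of 97 (Neurog3), 31 (Rfx6) and 25 (St18) and Insm1 sites of 149 (Pax4) and 111 (Myt1). Outside the upper ends, after the site described at Neurog3, the nearest were Foxa2 sites of 131 at Pax4, 31 at Rfx6 and 63 at Myt1, and an Insm1 site of 283 (rank 1463) at St18, 129.3 kb past the end. The Foxa2 site of 131 beyond the Pax4 window overlapped an Insm1 site at 28523010 to 28523257 with a score of 394 (rank 554), 23.2 kb past the end. This Insm1 site ranked above all 4 Insm1 sites in the Pax4 window. A Neurod1 site of rank 153 lay 198.5 kb beyond that window, also higher than any Neurod1 site in it.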

How the data were processed

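The submitters' processing notes name the tools Bowtie 0.12.7, MACS 1.4 and CASAVA and the mm9 build, with no settings. The threshold and control for calling a site, and how repeat pull-downs entered a list, were not given in the sources used here. Deposited lists carry 5 columns without names, which are chromosome, start, end, an inner position taken as the summit, and a whole-number score whose definition the authors' files do not give. The depth of the libraries is unknown, which limits the precision of every count.

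Sites sharing at least 1 bp were called shared and merged into regions with Python 3.11.15, numpy 2.4.6 and pandas 2.3.3. Wilson intervals came from scipy 1.17.1 and plots from matplotlib 3.10.9. Ties share the best rank. Tiles ran from the first site of each chromosome and include the windows, and regions were assigned to tiles by midpoint. The overlap and merging were tested on simulated lists.

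The genes, windows and motifs were chosen with earlier results of these data known. Sites were named by a rule, which took the highest-scoring site of each list per window, every region with all 3 factors and the sites next to the window ends. A planned search for an Insm1 pattern in promoters was not run. Other named sites were chosen after their values were seen.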

Additional observations from a re-analysis of the deposited data

How the results depend on the processing

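Of 87 alternative values over 14 counts and shares, 67 stayed within 1.5 times the value reported, or, for shares, within its interval, and 20 did not. With only sites above the median score of their list, which holds fewer sites by construction, the windows held 35 regions, 6 with all 3 factors. Neurog3 then had 7 sites, Pax4 4 regions and 5 sites, Rfx6 20 sites, Myt1 5 regions and 9 sites, and St18 9 regions and 16 sites. With windows shortened by 50 kb at both ends, Neurog3 had 1 region of 1 site and Pax4 5 regions and 7 sites. With windows lengthened by 100 kb, Neurog3 had 8 regions and 20 sites, Pax4 18 and 25, and Myt1 22 and 32. The share of Insm1 sites with Neurod1 ranged from 60 to 80% and with Foxa2 from 52.2 to 74.1%, the lowest Foxa2 share with each list limited to 14607 sites, a setting added after seeing the data. No paired analysis was possible because each factor has 1 site list.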
